A study of Mus musculus with 8 samples.

Results

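Nonsense-mediated decay (NMD) is the surveillance pathway that destroys mRNAs with a premature stop codon. The genes described here are the 9 NMD factors *Upf1*, *Upf2*, *Upf3a*, *Upf3b*, *Smg1*, *Smg5*, *Smg6*, *Smg8* and *Smg9*, chosen by symbol from the 40840 genes in the count tables, and all 9 were found. RNAseq was carried out on whole testes of 12-day-old (P12) mice on a C57BL/6J background, from 4 wild type and 4 *Tra2b-cPEko* animals, each group lettered A to D. Wild type mice carried a floxed and an unmodified *Tra2b* allele (*Tra2bPE* fl/+). *Tra2b-cPEko* mice carried a floxed and a deleted allele together with the *Vasa-Cre* transgene (*Tra2b* fl/-; *Vasa-Cre*). Germ cells thus lost the poison exon of *Tra2b*, while somatic cells kept it on the floxed allele only. Wild type mice carried no *Vasa-Cre*, so loss of the exon and presence of the transgene cannot be told apart here. The comparison asks whether the mRNAs of the decay machinery differed between whole testes of these genotypes, and in particular whether the paralogues *Upf3a* and *Upf3b* did.

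A poison exon carries a stop codon in frame, and its inclusion normally sends the mRNA to NMD. The pathway begins when a ribosome stops at a premature stop codon and UPF1, an RNA helicase, is bridged by UPF2 to a UPF3 protein that can sit on an exon junction complex downstream. The kinase SMG1, held in a complex with SMG8 and SMG9, then phosphorylates UPF1. Phosphorylated UPF1 recruits SMG6, an endonuclease that cuts the mRNA, and SMG5, an adaptor that helps to bring in the deadenylation and decapping enzymes. *Upf3b* lies on the X chromosome, which is silenced in male meiosis, whereas its paralogue *Upf3a* is autosomal and is known for high expression in the testis.

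The sequencing depth gave each of the 9 mRNAs between 1182 reads (*Smg9*) and 32171 reads (*Smg1*) in a library. Totals on genes ran from 36757386 to 59101569 reads. *Tra2b*, the targeted gene, had means of 163.8 ± 8.93 (wild type) and 197.8 ± 8.49 CPM (*Tra2b-cPEko*), where CPM are reads scaled to library size, the errors are SDs and n = 4 for each genotype. The groups did not overlap. Its log2 fold change was 0.27, with an edgeR quasi-likelihood Benjamini-Hochberg adjusted p of 0.0552 and a DESeq2 adjusted p of 0.000195. Counts per gene do not separate the poison exon isoform from the others. Wild type mice A and B stood apart from wild type C and D on the first principal component of log2 CPM, with scores of -29.3 and -30.5 against 3.0 and -3.70, while the *Tra2b-cPEko* mice were between 9.07 and 25.0. On the second component *Tra2b-cPEko* C stood apart at 31.3, with the other libraries between -19.5 (wild type C) and 11.3 (wild type B). A fit with wild type A and B both left out was chosen after seeing the data. It called 1 gene in place of 30, and its values are given beside the results that it turned or moved most. It compared 2 wild type with 4 *Tra2b-cPEko* mice and so had less power. With 1 mouse left out, 3 to 84 genes were called.

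All 9 factors were expressed in the P12 testis. Levels are given as CPM per kb of canonical transcript, a measure that allows genes to be compared. By it the 9 factors lay between the 65.4th and the 92.0th percentile of those genes tested that had an annotated canonical transcript. In wild type testes *Upf1* was the most abundant at 48.3 ± 3.25 CPM per kb (SD, n = 4). *Smg5* at 37.6 ± 1.25 and *Smg1* at 36.5 ± 2.27 CPM per kb came next, and their ranges over the 4 mice overlapped. *Smg6* at 29.8 ± 0.479 CPM per kb and *Upf3b* at 25.7 ± 0.701 CPM per kb were each separated from their neighbours. *Upf2* at 23.2 ± 1.05 and *Upf3a* at 21.9 ± 1.79 CPM per kb overlapped in range, as did the lowest pair, *Smg9* at 13.3 ± 1.49 and *Smg8* at 13.1 ± 0.530 CPM per kb. Wild type *Upf3a* had 0.848 times the level of *Upf3b* per kb of canonical transcript and 0.552 times per kb of all annotated exons. The order depends on the length used: per kb of all annotated exons *Upf2* moved from rank 6 to rank 4, *Smg8* from rank 9 to rank 6 and *Upf3b* from rank 5 to rank 7, while *Upf1*, *Smg5* and *Smg1* stayed the top 3.

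**Figure D1:**
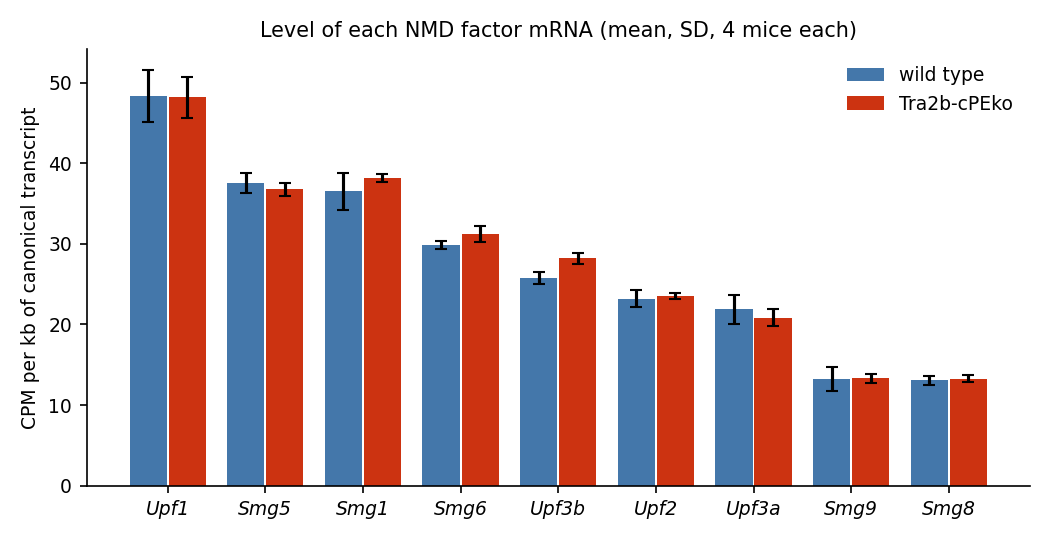
Level of each NMD factor mRNA in CPM per kb of canonical transcript (vertical axis, linear from 0), as the mean and SD of 4 wild type mice (blue) and 4 *Tra2b-cPEko* mice (red), ordered by the wild type mean. Wild type levels run from 48.3 for *Upf1* to 13.1 for *Smg8*, and the paired bars of each gene are close in height.

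None of the 9 factors passed an adjusted p of 0.05 between the genotypes by edgeR's quasi-likelihood test, where 0.157% of the 19104 genes tested did, or by DESeq2, where 2.79% did. At an unadjusted p under 0.05, both tools gave 1 of 9, *Upf3b*, against 15.3% of all genes by edgeR. *Upf3b* was also the 1 factor of 9 whose groups did not overlap, against 8.54% of all genes. A count of 1 in 9 is near these background shares. Of the 9 log2 fold changes, 6 were above 0 and 3 below. Their median was 0.02, against -0.0011 over all genes tested, and their median size regardless of direction was 0.03, against 0.09 over all genes. The spread between mice was small for all 9: the median within-genotype SD on the log2 scale was 0.0533, below 0.122 for all genes, and each factor was below that value. Both all-gene values include genes with few reads, and neither was matched to the level of the 9 factors. Whether genes of like level differ from the factors in size of change or spread was not tested. In bulk testis, fewer cells of a type and less RNA per cell cannot be told apart.

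**Figure D2:**
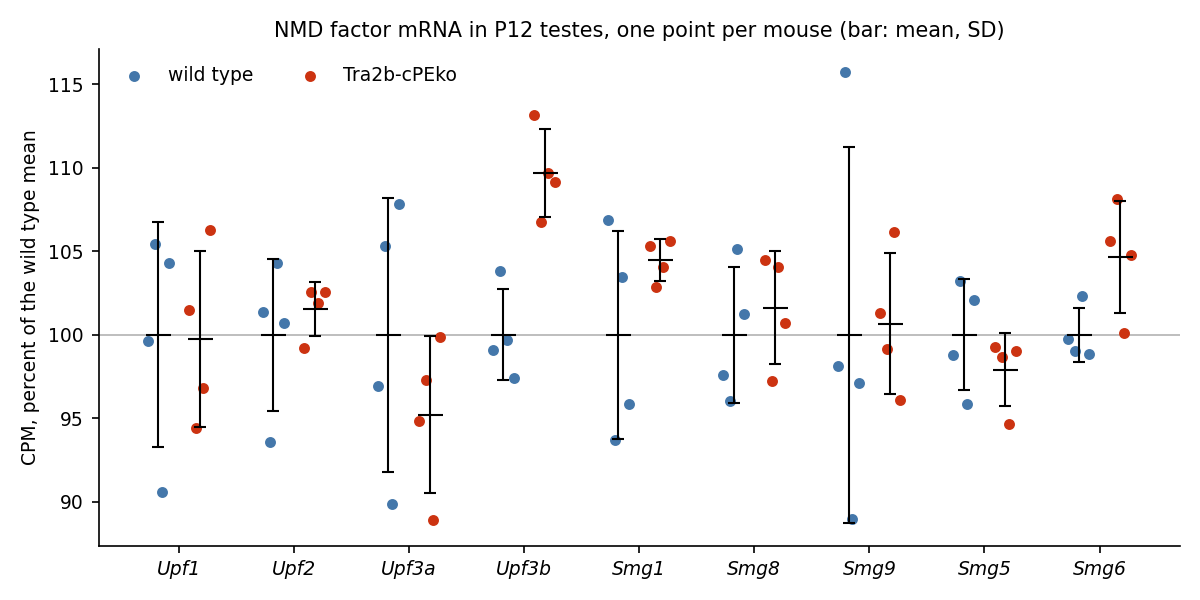
CPM of each NMD factor in each mouse as a percentage of the wild type mean of that gene (vertical axis, which does not start at 0), with wild type in blue, *Tra2b-cPEko* in red, and black bars for the mean and SD of 4 mice. The 4 *Tra2b-cPEko* values of *Upf3b* are all above the 4 wild type values, and the groups overlap for the other 8 genes.

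*Upf1*, the helicase at the centre of the pathway, lies on chromosome 8 of GRCm39 from 70784146 to 70806096 with 24 exons in its canonical transcript. It was at 230.3, 243.6, 209.4 and 241.0 CPM in wild type A to D and at 234.5, 218.2, 223.7 and 245.6 CPM in *Tra2b-cPEko* A to D. The groups overlapped over most of their range, and their means were 231.0 ± 15.5 and 230.5 ± 12.1 CPM (SD, n = 4). The 95% interval of the log2 fold change, -0.12 to 0.12, corresponds to a change between -8.18% and 8.39%, and the adjusted p was 0.986 (edgeR). The direction of this value, which is close to 0, turned in 9 of the 20 alternative fits. With wild type A and B both left out it was 0.04. *Cers1* and *Gdf1* overlap the exons of *Upf1* on the opposite strand, and the strand setting of the counting was not given in the sources used here. Genes on the opposite strand also overlap exons of *Upf3a*, *Smg5*, *Smg6*, *Smg8* and *Smg9*, so the same limit holds for them.

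*Upf2*, which bridges UPF1 and the UPF3 proteins, lies on chromosome 2 from 5956186 to 6061516 and overlaps no other annotated gene. Its 8 values lay between 113.4 CPM (wild type B) and 126.4 CPM (wild type C), and the 4 *Tra2b-cPEko* mice, at 120.2 to 124.3 CPM, fell within the wild type range. The log2 fold change was 0.02, with a 95% interval from -0.07 to 0.11 and an adjusted p of 0.847 (edgeR). It turned to -0.01 with wild type A and B both left out.

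The UPF3 paralogues had the lowest and the highest fold change of the 9 genes. *Upf3b*, which couples UPF2 to the exon junction complex, lies on chromosome X from 36355174 to 36374019 with 10 exons and overlaps no other annotated gene. It was at 60.4, 63.2, 60.7 and 59.3 CPM in wild type A to D and at 68.9, 65.0, 66.8 and 66.5 CPM in *Tra2b-cPEko* A to D. Every *Tra2b-cPEko* mouse was above every wild type mouse, and the nearest values, 63.2 CPM in wild type B and 65.0 CPM in *Tra2b-cPEko* B, were close. The means were 60.9 ± 1.66 and 66.8 ± 1.61 CPM (SD, n = 4), a log2 fold change of 0.13 ± 0.042 (SE) or 9.73% with a 95% interval from 2.96% to 16.9%. The adjusted p was 0.184 by edgeR and 0.0782 by DESeq2, so *Upf3b* was not called. The exact permutation test gave p = 0.0286, which is the lowest value possible with 4 mice per genotype. The log2 fold change was 0.16 with wild type A and B both left out and 0.15 with the mean of a pachytene marker list as a covariate. Among the 694 genes of the X chromosome that were tested, the median log2 fold change was 0.02, with 18.4% at an unadjusted p under 0.05 and 7.93% without overlap.

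*Upf3a*, the autosomal paralogue, which has been described both as a weak activator and as a repressor of NMD, lies on chromosome 8 from 13835584 to 13849194 with 9 exons. Unlike *Upf3b*, it has exons overlapped on the opposite strand, by the long noncoding RNA gene *Gm64012*. *Upf3a* was at 43.7, 47.5, 40.5 and 48.6 CPM in wild type A to D and at 42.7, 43.9, 40.1 and 45.0 CPM in *Tra2b-cPEko* A to D. The groups overlapped, with the highest 2 values in wild type D and B and the lowest in *Tra2b-cPEko* C. The means were 45.1 ± 3.69 and 42.9 ± 2.12 CPM (SD, n = 4). The log2 fold change of -0.07 had a 95% interval from -0.21 to 0.07, or -13.5% to 4.71%, and an adjusted p of 0.621 (edgeR).

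**Figure D3:**
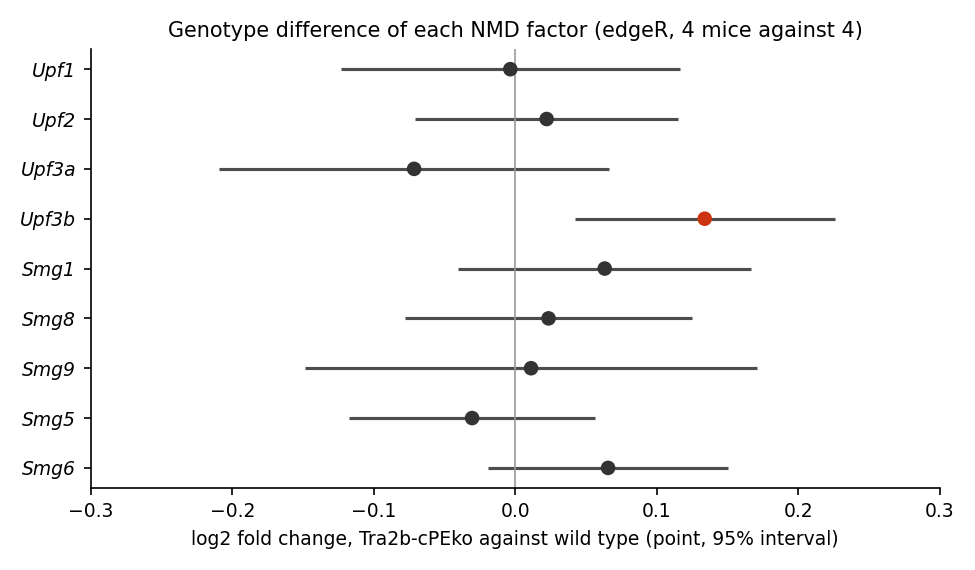
Log2 fold change of each NMD factor in *Tra2b-cPEko* against wild type testes (horizontal axis; points with 95% intervals from edgeR, 4 mice against 4), with *Upf3b* in red. The interval of *Upf3b*, 0.04 to 0.23, lies above 0 and the other 8 intervals span 0.

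Because both genes are read in the same library, the ratio of *Upf3a* to *Upf3b* does not depend on the scaling between libraries. The log2 ratio of their counts was -0.47, -0.41, -0.58 and -0.29 in wild type A to D and -0.69, -0.57, -0.74 and -0.56 in *Tra2b-cPEko* A to D. Wild type C was the only wild type mouse within the *Tra2b-cPEko* range. The mean fell from -0.44 ± 0.12 to -0.64 ± 0.088 (SD, n = 4), a difference of -0.20 that leaves *Tra2b-cPEko* testes with 87.0% of the wild type ratio, and per kb the ratio was 0.848 and 0.737. The exact permutation test, two-sided, gave p = 0.0857, or 0.229 adjusted over the 4 pairs of factors compared, so the difference did not pass. The p depended on the libraries included: without wild type C the difference was -0.25 with an exact p of 0.0286, the smallest that 3 mice against 4 allow, and without wild type D it was -0.15 with an exact p of 0.171. With wild type A and B both left out it was -0.20 with an exact p of 0.267, where 2 mice against 4 cannot go below 0.0667. With the trend of each library's counts on GC content removed, an alternative chosen after seeing the data, the difference was -0.20, the groups no longer overlapped, and the exact p was 0.0286. *Upf3a* has a GC content of 52.9% and *Upf3b* one of 42.6%.

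**Figure D4:**
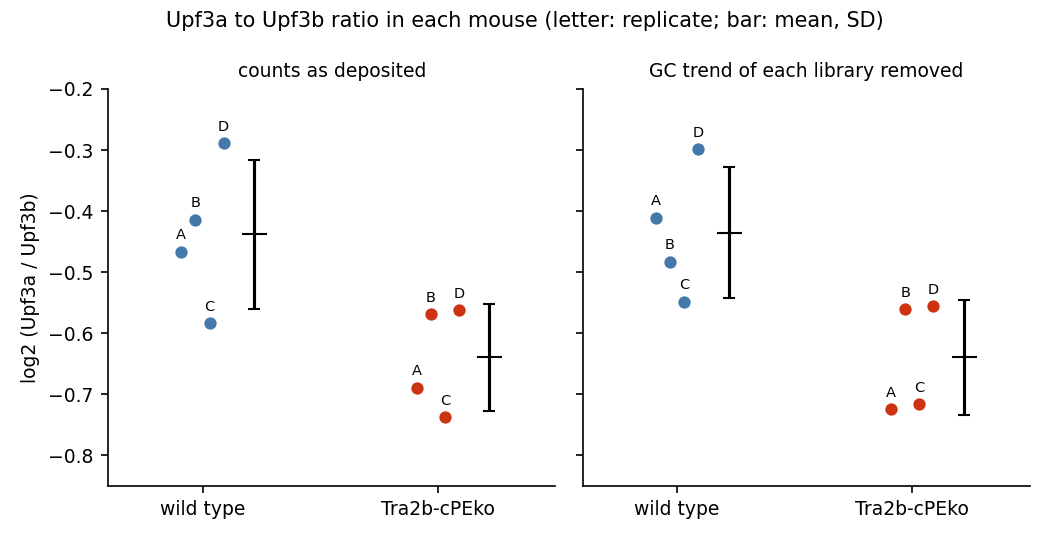
Log2 ratio of *Upf3a* to *Upf3b* in each mouse (letters mark the replicate; black bars give the mean and SD of 4 mice), from the deposited counts (left) and with each library's GC trend removed (right). On the left wild type C, at -0.58, lies among the *Tra2b-cPEko* mice, and on the right it is at -0.55, just above the highest *Tra2b-cPEko* values at -0.56.

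The other 3 pairs of factors that act together differed less. For *Upf1* to *Upf2* the difference in log2 ratio was -0.03 (exact p = 0.8), and for *Smg8* to *Smg9* it was 0.01 (exact p = 0.971). For *Smg5* to *Smg6*, the adaptor and the endonuclease that act after UPF1 phosphorylation, it was -0.10 (exact p = 0.114, adjusted 0.229 over the 4 pairs). Without wild type A and B these 3 differences were 0.05, -0.14 and -0.07. Some other X-linked genes have an autosomal partner that is expressed in the testis, and the ratios of 5 such pairs are given as a description. *Pgk2*, the partner of *Pgk1*, had as few as 4 reads in a library and is left out. The log2 ratio of the autosomal to the X-linked gene differed by -0.30 for *Pdha2* to *Pdha1*, encoding subunits of pyruvate dehydrogenase, and by -0.20 for the ribosomal protein genes *Rpl10l* to *Rpl10*, both with overlap. These 2 differences rested on wild type A and B, without which they were 0.10 and -0.01. The log2 ratio differed by 0.45 without overlap for *Utp14b* to *Utp14a*, genes of ribosome biogenesis, by 0.07 for *Cstf2t* to *Cstf2* and by -0.05 for *Rbmxl2* to *Rbmx*. *Utp14b* itself had a log2 fold change of 0.31 with an adjusted p of 0.0892 by edgeR, and 0.00418 by DESeq2.

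In the kinase complex, *Smg1*, on chromosome 7 from 117730527 to 117842893 with 63 exons, was at 607.6, 532.7, 588.2 and 545.0 CPM in wild type A to D and at 598.8, 584.8, 591.4 and 600.3 CPM in *Tra2b-cPEko* A to D. The *Tra2b-cPEko* mice were all within the wild type range and closer together, with SDs of 35.3 and 7.16 CPM. The log2 fold change was 0.06 with a 95% interval from -0.04 to 0.17 and an adjusted p of 0.55 (edgeR). *Smg8*, on chromosome 11 from 86967305 to 86977600, and *Smg9*, on chromosome 7 from 24098984 to 24122426, encode the partners that hold the kinase in check. *Smg8* was at 56.1 to 61.4 CPM in wild type and 56.8 to 61.1 CPM in *Tra2b-cPEko* mice, with a log2 fold change of 0.02 (95% interval -0.08 to 0.13). This value turned to -0.02 with wild type A and B both left out. *Smg9*, the factor with the fewest reads, was at 29.8 to 38.8 CPM in wild type and 32.2 to 35.6 CPM in *Tra2b-cPEko* mice, with a log2 fold change of 0.01 (95% interval -0.15 to 0.17). The value of *Smg9* moved to 0.12 with wild type A and B both left out (adjusted p = 0.546, edgeR) and to 0.11 with the pachytene covariate (adjusted p = 0.498, edgeR), with adjusted p from 0.498 to 0.998 over all alternatives. For both genes the *Tra2b-cPEko* range lay inside the wild type range.

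Of the effectors, *Smg6*, the endonuclease, lies on chromosome 11 from 74816618 to 75055274. It was at 174.7, 173.5, 179.2 and 173.1 CPM in wild type A to D and at 185.0, 189.4, 175.3 and 183.5 CPM in *Tra2b-cPEko* A to D. All wild type mice but C were below all *Tra2b-cPEko* mice, and wild type C was above *Tra2b-cPEko* C only. The log2 fold change was 0.07 with a 95% interval from -0.02 to 0.15, an adjusted p of 0.446 (edgeR) and an exact permutation p of 0.0571. *Hic1* and *Srr*, which overlap exons of *Smg6* on the opposite strand, were at 26.0 and 52.1 CPM in wild type and 27.7 and 52.0 CPM in *Tra2b-cPEko* mice. *Smg5*, which links phosphorylated UPF1 to deadenylation and decapping, lies on chromosome 3 from 88243555 to 88269646. It was at 165.6, 173.0, 160.7 and 171.1 CPM in wild type A to D and at 166.3, 165.4, 158.6 and 166.0 CPM in *Tra2b-cPEko* A to D. The groups overlapped, and the log2 fold change of -0.03 had a 95% interval from -0.12 to 0.06 and an adjusted p of 0.754 (edgeR).

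As a description of likeness, the log2 CPM of *Upf3a* over the 8 mice followed most closely that of *Rasip1* (Pearson r = 0.977), *Tob2* (0.968) and *Mta1* (0.964), out of 10849 genes averaging 10 CPM or more. For *Upf3b* the closest were *Creb3* (0.978), *Mttp* (0.967) and *Rrbp1* (0.954). These are the highest of many correlations over the same 8 libraries, which differed in depth and in the levels of cell type markers.

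The genes that act around the 9 factors were read from lists written for this comparison, and none of their genes was called by edgeR. Of 7 other NMD factors and partners, 1 had a fold change above 0 and 6 below, none with an unadjusted p under 0.05, and the median log2 fold change was -0.07. The 3 with the smallest p were *Tdrd6*, a germ granule gene (2.42 ± 1.52 and 1.16 ± 0.175 CPM), *Dhx34*, an RNA helicase (28.8 ± 1.76 and 27.2 ± 0.992 CPM), and *Nbas* (93.9 ± 4.64 and 89.4 ± 4.30 CPM), with log2 fold changes of -1.04, -0.08 and -0.07. *Tdrd6* was at 3.73 and 3.74 CPM in wild type A and B, at 1.01 and 1.19 CPM in wild type C and D, and at 0.953 to 1.35 CPM in *Tra2b-cPEko* mice, so its fold change rested on wild type A and B. Without these mice the 3 values were 0.08, -0.01 and -0.02, and the list had 2 above 0 and 5 below with a median of -0.01. Of 10 exon junction complex genes, 9 had a fold change below 0 and 4 of these an unadjusted p under 0.05, where 15.3% of all genes had one in either direction. The median of the list was -0.09. With wild type A and B both left out the median was again -0.09, and 2 of the 10 genes, *Eif4a3* and *Magoh*, had an unadjusted p under 0.05.

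In the core of the exon junction complex, *Eif4a3*, the helicase that clamps the complex to RNA, was at 151.0, 154.7, 154.5 and 157.5 CPM in wild type A to D and at 145.7, 137.2, 139.7 and 150.8 CPM in *Tra2b-cPEko* A to D. The groups did not overlap, by a narrow gap between wild type A and *Tra2b-cPEko* D. The log2 fold change was -0.11 (adjusted p = 0.258, edgeR). *Magohb*, at 12.2 ± 0.598 and 10.2 ± 1.12 CPM, and *Rbm8a*, at 109.9 ± 3.31 and 100.03 ± 4.77 CPM, encode the MAGOHB and Y14 subunits. They had log2 fold changes of -0.26 and -0.14, with adjusted p of 0.199 and 0.201 (edgeR) and with overlap. *Magoh*, the fourth, named after its values were seen, had a log2 fold change of -0.11 without overlap.

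Among 7 translation termination, cap-binding and poly(A)-binding genes, 2 were above 0 and 5 below. *Ncbp2*, of the nuclear cap-binding complex, had a log2 fold change of -0.13 and the only unadjusted p under 0.05 (0.0138). *Pabpc1*, the main cytoplasmic poly(A)-binding protein, and *Etf1*, the release factor, had log2 fold changes of 0.09 and -0.06. Without wild type A and B, *Ncbp2* was at -0.08 (unadjusted p = 0.122) and *Pabpc1* at 0.18 (unadjusted p = 0.0135, adjusted p = 0.361, edgeR). Among 15 decapping, deadenylation and exonuclease genes, which carry out the decay, 5 were above 0 and 10 below with a median of -0.01. *Dcp1b* (-0.16), *Edc3* (-0.10) and *Parn* (-0.06) had the smallest p, under 0.05 unadjusted for *Dcp1b* alone. Without wild type A and B the median was -0.06, and the unadjusted p was 0.174 for *Dcp1b* and 0.0371 for *Parn*.

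Of 12 known NMD target genes, whose mRNAs rise when the pathway is impaired, 4 were above 0 and 8 below, with a median log2 fold change of -0.04. *Slc7a11*, a cystine transporter gene, was at 1.63, 0.568, 1.26 and 2.05 CPM in wild type A to D and at 2.12, 4.52, 5.79 and 3.19 CPM in *Tra2b-cPEko* A to D. All 4 *Tra2b-cPEko* mice were higher, with *Tra2b-cPEko* A close to wild type D. The log2 fold change was 1.48 ± 0.42 (SE), called by DESeq2 (adjusted p = 0.0033) and not by edgeR (adjusted p = 0.184). *Snhg1* and *Gas5*, small nucleolar RNA host genes whose spliced transcripts are NMD substrates, had log2 fold changes of -0.16 and -0.11, with adjusted p of 0.221 and 0.330 (edgeR). *Snhg1* was also without overlap, lower in all 4 *Tra2b-cPEko* mice. Of the 12 genes, 1 was called by DESeq2, against 2.79% of all genes, and 2 were without overlap, against 8.54%. Without wild type A and B the list had 6 genes above 0 and 6 below with a median of 0.02, and *Slc7a11* had a log2 fold change of 1.23.

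**Figure D5:**
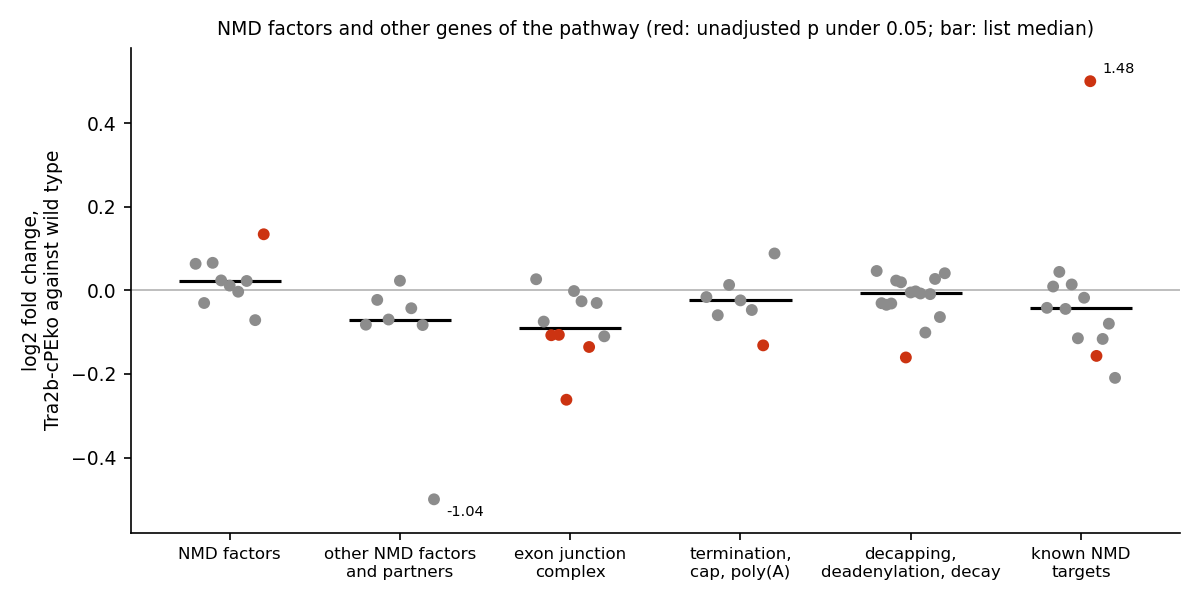
Log2 fold change, *Tra2b-cPEko* against wild type (vertical axis), of each tested gene in the 9 NMD factors and in 5 lists of other genes of the pathway, with genes at an unadjusted edgeR p under 0.05 in red and list medians as black bars. The medians lie between -0.09 for the exon junction complex and 0.02 for the NMD factors, and 2 genes beyond the axis, *Tdrd6* at -1.04 and *Slc7a11* at 1.48, are drawn at its edge with their value.

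Markers of the cell types in the P12 testis also varied between the libraries, and apart from the pachytene covariate their part in the values above was not tested. The counts at an unadjusted p under 0.05 (edgeR) stand beside 15.3% of all genes, in either direction. Of 9 macrophage genes, all 9 had a fold change above 0, with 5 at an unadjusted p under 0.05, and their summed level was 123 to 144 CPM in wild type and 147 to 176 CPM in *Tra2b-cPEko* mice. Of 18 leptotene and zygotene genes, 13 were below 0, with 5 lower and 1 higher at an unadjusted p under 0.05, and the sums were 1982 to 2653 CPM and 2053 to 2132 CPM. Of 14 pachytene genes, 10 were tested and 8 of these were below 0, with sums of 254 to 453 CPM and 276 to 344 CPM, while *Adam3*, *Pou5f2*, *Pgk2* and *Acrv1* did not pass the filter on low counts. These germ cell counts rested on wild type A and B, whose pachytene sums were 447 and 453 CPM against 254 and 290 CPM in wild type C and D. With A and B both left out, 12 of the 18 leptotene and zygotene genes and 6 of the 10 pachytene genes were above 0, while all 9 macrophage genes stayed above 0. The median log2 fold changes of the 13 spermatogonial, 12 Sertoli, 8 Leydig, 9 peritubular and 7 endothelial genes were -0.07, -0.04, 0.24, 0.08 and 0.05, and without wild type A and B they were -0.15, -0.05, 0.00347, 0.14 and 0.07. The spermatogonial *Sohlh1* was the only marker called by edgeR, where 0.157% of all genes tested were. Its log2 fold change was -0.34 without overlap (adjusted p = 0.0341, edgeR). Without wild type A and B it was -0.37 (adjusted p = 0.0691, edgeR). DESeq2, where 2.79% of all genes were called, called *Sohlh1* too (adjusted p = 9.16e-06). It also called *Mei1*, *Stag3* and *Spata16*, lower in *Tra2b-cPEko* mice, and *Lhcgr* and *Csf1r*, higher. Their adjusted p were 0.00593, 0.0256, 0.0209, 0.00851 and 0.0400 (DESeq2), and *Spata16* was at 0.555 and 0.122 CPM only. At an unadjusted p under 0.05, 2 of the 13 spermatogonial genes were lower, which is near the share of all genes, and 5 without wild type A and B. Of the 9 NMD factors, *Upf3b* kept its direction and *Upf2* and *Smg8* turned theirs when the pachytene list was a covariate, with log2 fold changes of -0.01 for both, as did *Upf1*, at 0.03.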

How the data were processed

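RNA of whole P12 testes (4 wild type, 4 *Tra2b-cPEko*) was sequenced with the TruSeq stranded mRNA kit. The authors deposited raw counts per gene, 1 table per mouse, and the submitters' processing notes name HISAT2 2.2.1, SAMtools 1.7.1, HTSeq 2.0.2 and GRCm39. The study's methods name Salmon for quantification, but the tables end in 5 summary lines of the HTSeq form, which were left out and hold the reads outside genes, so that 66.4% to 69.0% of all reads lie on genes.

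Genes were filtered with filterByExpr of edgeR 4.0.16 in R 4.3.3 (minimum count 10, minimum total 15), scaled by TMM, and compared between genotypes by the robust quasi-likelihood F-test, with Benjamini-Hochberg adjustment over 19104 genes and a threshold of 0.05. Single genes and ratios were compared with two-sided exact permutation tests over 70 arrangements, whose smallest p is 0.0286. DESeq2 1.42.0, the tool the study used, and limma-voom (limma 3.58.1) were alternatives, as were RLE and upper-quartile factors, other filters, a replicate block, a pachytene covariate and fits without each mouse. The removal of each library's GC trend and a fit without wild type A and B were added after seeing the data. Log2 CPM used a prior count of 2. The scripts were tested on simulated data. The members and lists were chosen with earlier results of these data known.

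Named genes were all 9 factors and *Tra2b*; every called gene of each other pathway list or else the 3 with the smallest p; and the 3 genes most correlated with *Upf3a* and with *Upf3b*. GENCODE vM39 (GRCm39) gave positions, lengths and GC content, for the 32251 of 40840 genes that it lists by the same symbol, while the counts used NCBI annotation. BLAST+ 2.17.0 at 95% identity over at least 200 bases and 50% of a transcript found no near-identical copy of a factor beyond genes overlapping it on the opposite strand. Libraries of a genotype were not copies of each other (chi-square of their counts divided by its degrees of freedom, 6.21 to 19.0). The study's methods call the mice biologically independent and state that exact age could vary. No batch is given in the labels. An item of a pathway list is not reported here, and the counts of that list leave it out.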

Additional observations from a re-analysis of the deposited data

Results flagged for a closer look

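*Smg5* in *Tra2b-cPEko* C, at 158.6 CPM, lay far below the other 3 *Tra2b-cPEko* mice at 165.4 to 166.3 CPM, and its gap to the nearest of them was 0.873 of the range of the group, above the critical value of Dixon's test for 4 values. Of 28 groups of 4 mice checked, this was the 1 that passed, where chance gives 1.4.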

How the results depend on the processing

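In none of the alternatives was an NMD factor called (0 of 9 by edgeR, DESeq2 and limma-voom, with 1 of 9 at an unadjusted p under 0.05 in each refit), and *Upf3b* had a log2 fold change between 0.12 and 0.16 and an adjusted p between 0.0782 and 0.408. The number of genes called over all genes, 30, was 58 with upper-quartile factors, 123 without the filter, 14 with a mean count of at least 50, 507 by DESeq2, 11 by limma-voom, 12 without robust estimation, 106 with the pachytene covariate, 156 at a threshold of 0.1, 3 at 0.01, 9 with the GC trend removed, 1 with wild type A and B both left out, and 3 to 84 with 1 mouse left out. The replicate letters did not pair the mice (r of deviations from -0.14 to 0.12, with *Tra2b-cPEko* D alone the best match of its letter), and with the letter as a block 67 genes were called, or 8 with the GC trend removed as well. In the block the *Upf3a* to *Upf3b* log2 ratio differed by -0.20 with an exact p of 0.125, the smallest it allows. Without 1 mouse that difference was -0.25 to -0.15, at -0.25 without wild type C, and it was -0.20 with the GC trend removed. The median log2 fold change of the factors, 0.0222, was 0.0406 with upper-quartile factors and 0.00825 to 0.0409 with 1 mouse left out. The value of *Upf1*, -0.00346, turned to 0.0151 with upper-quartile factors, 0.0342 with the pachytene covariate, 0.00649 with the GC trend removed, 0.00692 with the block as well, and 0.0354 with wild type A and B both left out, and was -0.0500 to 0.0236 with 1 mouse left out. *Upf2* turned to -0.00784 with the pachytene covariate and -0.0115 with wild type A and B both left out, and was -0.0072 to 0.0409 with 1 mouse left out. *Smg8* turned to -0.00623 and -0.019 in the same 2 fits, and *Smg9* was -0.0425 to 0.0889 with 1 mouse left out, 0.116 with wild type A and B both left out and 0.105 with the pachytene covariate. The cause of these moves was not tested.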

Other observations

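Over the 8 mice the 9 factors did not all vary together. Of the 36 pairs of factors, 7 had a Pearson r of log2 CPM above 0.7 or below -0.7, and 0 had an adjusted permutation p under 0.05. The closest pair was *Upf3a* and *Smg5*, with r = 0.951 and Spearman's rho = 0.810 (permutation p = 0.00337 for r, adjusted 0.121 over 36 pairs). The r was 0.933 without the 2 mice farthest from the median of *Upf3a* and 0.943 within genotypes. The most opposed pair was *Upf2* and *Smg9*, with r = -0.856, or -0.909 within genotypes. Without the 2 mice farthest from the median of *Upf2* the r was -0.146, so it rests on them. Libraries differed in how GC-rich genes were read relative to GC-poor ones, with a high-minus-low difference from -0.08 in wild type A to 0.10 in wild type B on the log2 scale over 11060 genes. With this trend removed, 2 of the 36 pairs were past 0.7 in size, the r of *Upf3a* and *Smg5* was 0.756, and that of *Upf2* and *Smg9* was -0.681.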
